A study of Homo sapiens with 9 samples.

Results

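The genes described here encode regulators of G protein signalling (RGS proteins), read in AC16 cells. This human line came from a fusion of adult ventricular cardiomyocytes with transformed fibroblasts. The members are the table rows of 10 named RGS genes (RGS2, RGS3, RGS4, RGS5, RGS10, RGS12, RGS14, RGS16, RGS17 and RGS19) whose mean reached 0.5 FPKM, fragments counted relative to transcript length and library size, in at least 1 group. The 10 symbols fill 11 of the 60671 rows of the table, since RGS5 is listed in 2 rows. The level rule kept 10 rows from 9 symbols and left out RGS16. The rows were chosen by their group mean FPKM, so which of these genes pass that level is not a result. The kept rows all reached 0.5 FPKM in every group, so none entered through 1 group alone. Just inside the level lay RGS17, with group means of 0.797 to 0.933 FPKM, and outside it RGS16, with 0 to 2 reads per library.

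Polyadenylated RNA was sequenced from 9 libraries in 3 groups of 3. The groups were cells kept in low glucose, cells kept in high glucose, and cells kept in high glucose together with chrysin, a plant flavone. The series concerns chrysin, ferroptosis and the desaturase SCD1 in a model of the diabetic heart. The sources used here give no glucose concentration, chrysin dose, exposure time or vehicle. Nor do they say whether the 3 libraries of a group came from separate cultures, so a p-value reflects the spread among libraries, and that spread may be technical.

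A G protein-coupled receptor activates its G protein by making the alpha subunit release GDP and take up GTP. The signal ends when the alpha subunit hydrolyses GTP, and an RGS domain speeds that step, so RGS proteins shorten signalling through the Gi/o and Gq classes of alpha subunit. The R4 subfamily (RGS2, RGS3, RGS4, RGS5 and RGS16 here) holds mostly small proteins, several of which restrain signalling by vasoconstrictor receptors in heart and vessel. The R12 subfamily joins the small RGS10 to the multidomain scaffolds RGS12 and RGS14, and RGS17 and RGS19 belong to the RZ subfamily, whose proteins carry a cysteine string. RGS transcript levels are known to respond quickly to receptor and second messenger signals.

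The 9 libraries held 18171842 to 23024300 reads, recovered from the steps of the FPKM values. The line's cardiac identity was thin in these data: 2 of 14 cardiomyocyte markers passed the level filter (GATA4 and NPPB), and MYL2, PLN and NKX2-5 were at 0 in all libraries. All 10 fibroblast markers passed, with sums of 7630 to 7920 FPKM (low glucose), 9020 to 9490 (high glucose) and 6320 to 6480 (chrysin). Of 11 pericyte and smooth muscle markers 9 passed, and their sums ran from 415 to 423, 401 to 416 and 477 to 491 FPKM in the same order. Endothelial and immune markers summed to at most 5.81 FPKM in any library. These are bulk libraries, in which fewer cells of a type and less RNA per cell cannot be told apart.

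RGS10 was the most abundant RGS transcript per unit length in low glucose, at a mean of 78.5 FPKM, followed by RGS4 at 35.3, RGS19 at 23.8, RGS3 at 20.2 and RGS12 at 14.8 FPKM. A lower tier held RGS2 at 5.15, RGS14 at 3.58, the 2 RGS5 rows at 2.25 and 1.79, and RGS17 at 0.889 FPKM. The order moved in its upper part. In high glucose RGS4 stood below RGS19, its highest library (21.9 FPKM) under the lowest of RGS19 (26.0). With chrysin RGS4 stood beside RGS10, and their libraries overlapped. RGS4 and RGS3 came nearest in high glucose, where RGS3 reached 20.5 FPKM and RGS4 began at 21.3. RGS3 and RGS12 overlapped in both high-glucose groups, and RGS2 and RGS14 overlapped in high glucose and under chrysin.

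**Figure D1:**
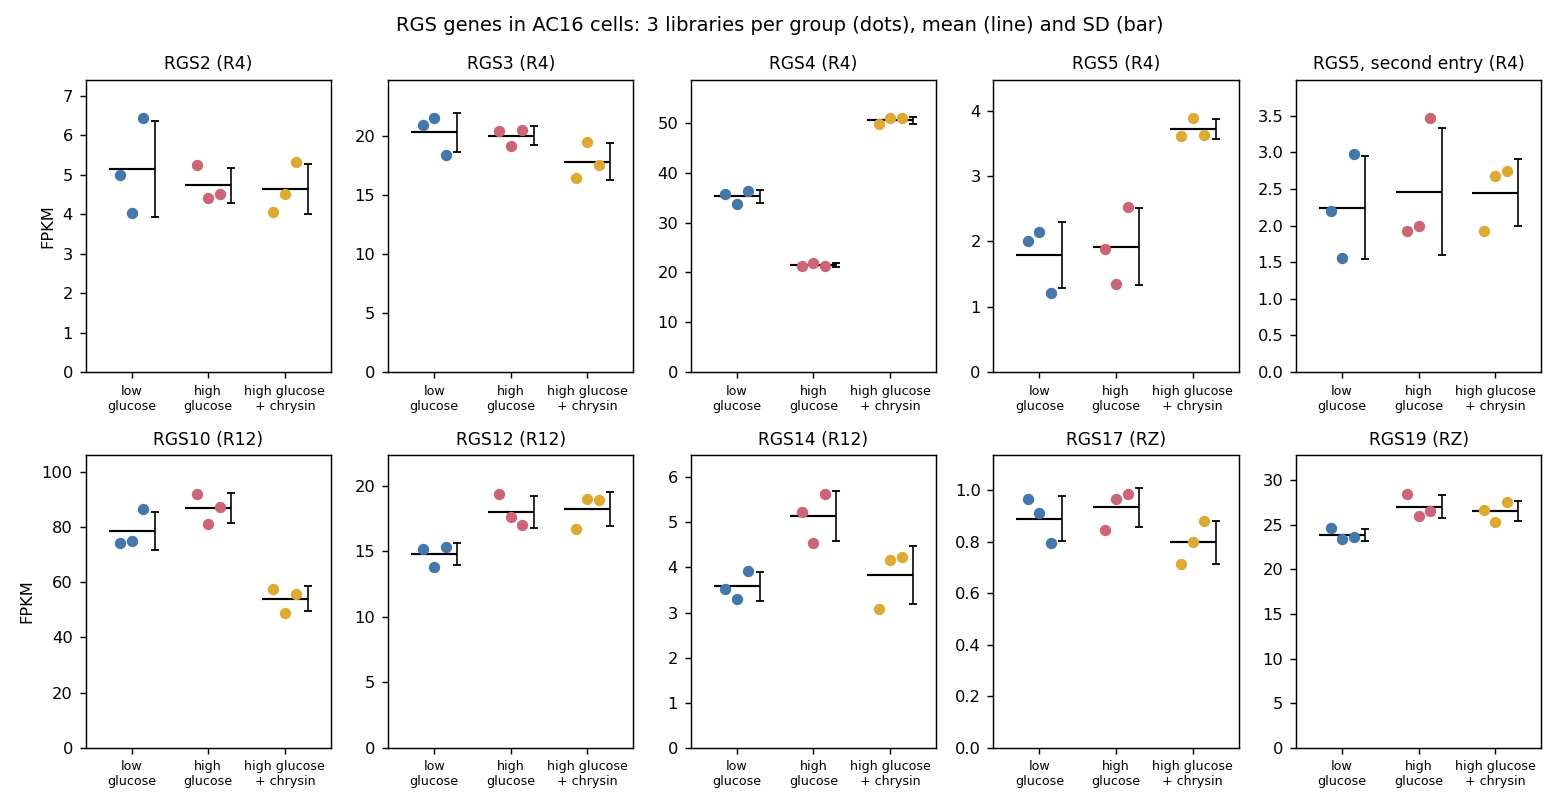
FPKM (vertical axes, each from 0 and on its own scale) of the 10 RGS rows in low glucose, high glucose, and high glucose with chrysin. Dots are single libraries, the horizontal line is the mean of 3 and the bar the SD. RGS4 falls from 35.3 to 21.5 FPKM and reaches 50.5 with chrysin, without overlap between groups, and RGS10 drops to 54.0 FPKM with chrysin.

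Of the 10 rows, 4 passed an adjusted p of 0.05 in high against low glucose: RGS12, RGS14 and RGS19 were higher and RGS4 was lower. Across all 16996 genes tested 23.5% passed in that comparison, 14.6% higher and 8.91% lower. That count rested on single libraries: it was 1 without low-glucose library 2, with RGS4 left, and 2 without high-glucose library 1. Chrysin in high glucose against high glucose alone also moved 4 rows, with RGS4 and RGS5 higher and RGS10 and RGS14 lower, beside 45.8% of all genes (24.9% higher, 20.9% lower). Against low glucose the chrysin libraries differed in 5 rows, RGS4, RGS5, RGS12 and RGS19 higher and RGS10 lower, beside 51% of all genes (29.7% higher, 21.3% lower). Under median-of-ratios scaling that split was 3 higher and 2 lower, with RGS19 lost and RGS3 lower. In the main test the members' share of calls was above that of all genes in high against low glucose and slightly below it in both chrysin comparisons. The first order was reversed without low-glucose library 2, where 1 of 10 rows and 3209 of 17044 genes passed. At a filter of 5 FPKM 4 of 7 rows and 3976 of 10414 genes passed in that comparison. The members' median log2 change was 0.09, -0.03 and 0.10 in the 3 comparisons, beside 0.02, 0.03 and 0.05 over all genes. Fold changes here and below are on the log2 scale of FPKM plus 0.5, which understates changes of low genes, and adjusted p-values come from limma over all genes tested.

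**Figure D2:**
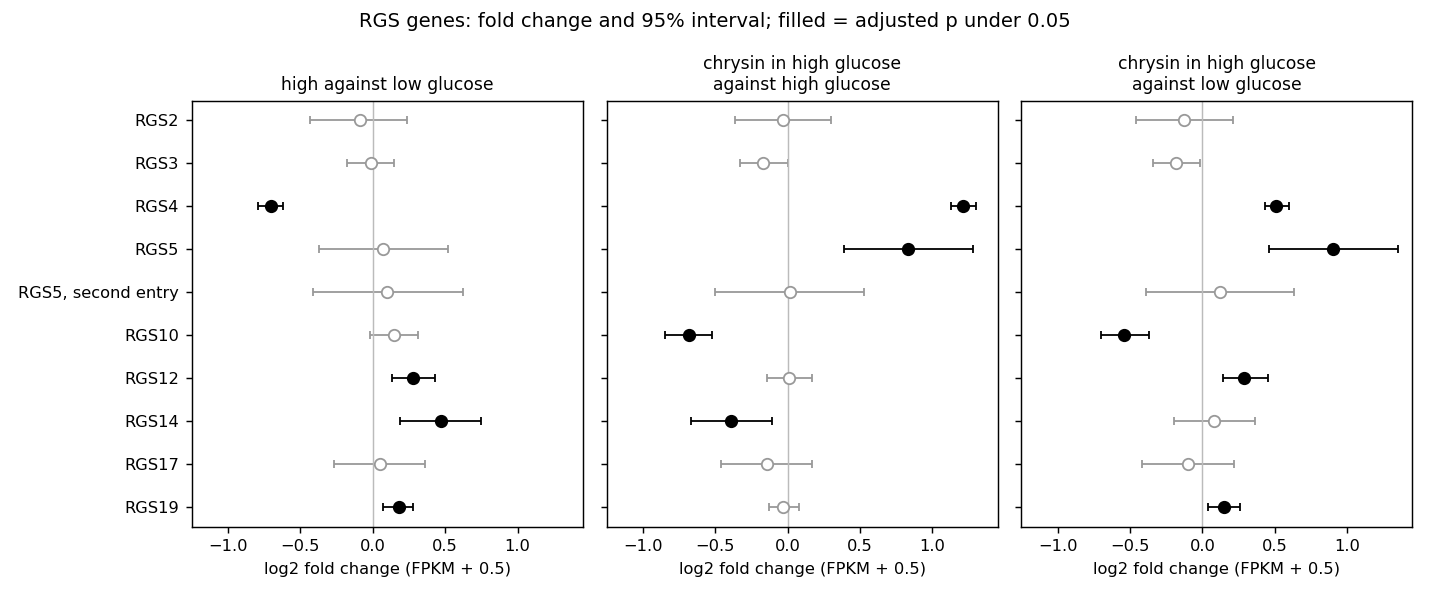
Log2 fold change (horizontal axis, of FPKM plus 0.5) of each RGS row in the 3 comparisons, with its 95% interval from limma. Filled points passed an adjusted p of 0.05. RGS4 lies at -0.70, 1.21 and 0.51 from left to right with the narrowest intervals, and RGS10 at 0.15, -0.68 and -0.54.

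RGS4, an R4 protein that acts on Gi/o and Gq alpha subunits, moved most of the members in high against low glucose and in chrysin against high glucose. Its low-glucose libraries read 35.8, 33.8 and 36.3 FPKM, its high-glucose libraries 21.3, 21.9 and 21.3, and its chrysin libraries 49.7, 51.0 and 50.9. The 3 groups did not overlap, and the high-glucose libraries were the lowest of the 9. Each value rests on 697 to 1899 reads. RGS4 fell by 0.70 on the log2 scale (SE 0.04) in high against low glucose, with an adjusted p of 9.9e-07 from limma. With chrysin in high glucose it rose 2.32-fold over high glucose alone (log2 1.21, SE 0.04, adjusted p 6.5e-09). That level also lay above low glucose, by a log2 difference of 0.51 (adjusted p 1.6e-06), so the chrysin libraries passed the low-glucose level rather than stopping at it.

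RGS4 lies on chromosome 1 (GRCh38, positions 163068775 to 163076802, plus strand, GENCODE 29). RefSeq start-site windows of 300 bases, 250 before the start and 50 after, were found for all 10 symbols, 24 windows in all. They were searched on both strands for 7 motifs. The TATA box (TATAAA) was in 2 of the 24 windows, beside 11.5% of all 35116 promoters in the table, once 30 bases before an RGS4 start and once 166 bases before an RGS3 start. The GC box (GGGCGG) was in 12 of 24 windows, beside 45% of all promoters, and in none of RGS4. The stretches below come from RGS4, RGS5 and RGS10, the members with the largest calls between the chrysin and high-glucose groups. Of RGS4 only the window with the TATA box is used, and its other windows hold none. The stretches include both windows of RGS5 and of RGS10. Each is printed 5′ to 3′ from GRCh38.p14, with only TATA boxes in capitals in the stretches of 30 bases and only GC boxes in the stretch of 100 bases.
RGS4, chr1:163069321-163069350, plus strand, 40 to 11 bases before the start at 163069361: gtagctgggcTATAAAagagacccctacag
RGS5, chr1:163202927-163202956, minus strand, 40 to 11 bases before the start at 163202916: gaaagagcttctatatatacctcaggagga
RGS5, chr1:163321746-163321775, minus strand, 40 to 11 bases before the start at 163321735: cgcggtttcggggaagagaccggggttgag
RGS10, chr10:119536597-119536626, minus strand, 40 to 11 bases before the start at 119536586: gtttagtccacttaaaagaggatgttgagg
RGS10, chr10:119542760-119542859, minus strand, 140 to 41 bases before the start at 119542719: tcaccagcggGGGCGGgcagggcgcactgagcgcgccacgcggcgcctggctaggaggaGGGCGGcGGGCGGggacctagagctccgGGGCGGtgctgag
The longer RGS10 stretch holds 4 of the 5 GC boxes of that window, at 130, 81, 74 and 53 bases before the start, while the other RGS10 window holds 0. Of the RGS5 windows the one at 163321735 holds 2 GC boxes, at 211 and 106 bases before the start, outside the stretch printed. The full cAMP response element (TGACGTCA) was in 0 of the 24 windows, beside 1.85% of all promoters, and the C/EBP-ATF element (TGATGNAA) was also in 0, beside 3.62%. The shorter core of the cAMP response element (TGACG, contained in the full one) was in 5 windows, beside 24.6%. Of these, 2 are overlapping RGS4 windows that share 1 site, which lies 32 bases before the start at 163069254 and 139 bases before that at 163069361. The E box (CACGTG) was in 2 windows, beside 7.26%, and the xenobiotic response element core (GCGTG) in 11, beside 36.5%. A match is a description of letters, and which of these starts AC16 cells use was not measured.

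RGS5, known as a marker of pericytes and as an R4 regulator in vascular smooth muscle, was a low transcript here and rose with chrysin. The gene lies on chromosome 1, positions 163111121 to 163321791, minus strand, 34.3 kb beyond the end of RGS4. Its protein-coding row read 2.01, 2.15 and 1.21 FPKM in low glucose, 1.89, 1.34 and 2.52 in high glucose, and 3.62, 3.89 and 3.63 under chrysin. All 3 chrysin libraries stood above the other 6, which overlapped one another. RGS5 rose by a log2 change of 0.83 (SE 0.20, adjusted p 0.006 from limma) with chrysin over high glucose and by 0.90 (adjusted p 0.0032) over low glucose. High against low glucose gave 0.07, with a 95% interval of -0.37 to 0.52 (adjusted p 0.84). These values rest on 33 to 115 reads per library.

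The second RGS5 row passed the threshold in no comparison. From its implied length of 740.6 bases it was matched to an overlapping entry on the same strand, positions 163244505 to 163321894, which GENCODE 29 classes as antisense and whose transcripts average 740.0 bases. It read 2.2, 1.56 and 2.97 FPKM in low glucose, 1.93, 1.99 and 3.47 in high glucose, and 1.92, 2.68 and 2.74 under chrysin, on 21 to 50 reads. The groups overlapped, and chrysin against high glucose gave a log2 change of 0.02 with a 95% interval of -0.50 to 0.53. Exons of the 2 entries overlap on 1 strand, so their reads cannot be fully told apart, and the second entry also overlaps exons of NUF2, a kinetochore gene at 79.9 to 93.6 FPKM in group means, on the other strand. No source used here says whether reads were counted by strand.

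Because RGS5 marks pericytes, the pericyte and smooth muscle list is given beside it. In chrysin against high glucose 2 of its 9 tested genes were higher and 2 lower, which is near the shares of all genes (24.9% and 20.9%). ACTA2, smooth muscle actin, rose 3.29-fold (log2 1.72, adjusted p 3e-06) and TAGLN 1.64-fold (log2 0.72), while DES, the muscle filament protein desmin, fell by 0.71 and PDGFRB, the pericyte PDGF receptor, by 0.53 on the log2 scale. The part of these markers in the RGS5 result was not tested.

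The other R4 members did not pass the threshold in any comparison. RGS2, which acts mainly on Gq, read 4.99, 4.03 and 6.44 FPKM in low glucose, 5.24, 4.42 and 4.52 in high glucose, and 4.06, 4.52 and 5.31 under chrysin, and all groups overlapped. The interval for chrysin against high glucose ran from -0.36 to 0.30 in log2, which leaves room for changes of that size either way at 59 to 99 reads per library. RGS3, an R4 gene with long multidomain isoforms, read 20.9, 21.5 and 18.4, then 20.4, 19.1 and 20.5, then 16.4, 19.5 and 17.5 FPKM. Its chrysin mean of 17.8 ± 1.6 FPKM (SD, n = 3) was the lowest of the 3 groups, but the log2 differences of -0.17 from high glucose (adjusted p 0.09 from limma) and -0.18 from low glucose (adjusted p 0.065) missed the threshold. Without chrysin library 2 both passed it (adjusted p 0.029 and 0.02), and with limma voom on recovered reads they also did (0.047 and 0.03). RGS16 was at or near 0, from 0 to 0.0435 FPKM, with 4 of 9 libraries above 0.

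RGS10, a small R12 protein that acts on Gi-class alpha subunits and is best known from immune cells, was the member that was lowered most with chrysin. Its libraries read 74.2, 74.9 and 86.4 FPKM in low glucose, 92.1, 81.2 and 87.2 in high glucose, and 57.5, 48.9 and 55.7 under chrysin. Low and high glucose overlapped, and every chrysin library lay under both. RGS10 fell by 0.68 (SE 0.07) on the log2 scale with chrysin against high glucose, a 1.6-fold drop with an adjusted p of 3.1e-05. Against low glucose it fell by 0.54 (adjusted p 0.00013). High against low glucose gave 0.15, with an interval of -0.02 to 0.31 (adjusted p 0.19). The gene lies on chromosome 10, positions 119499828 to 119542708, minus strand, and 569 to 1168 reads stood behind each value. Because RGS10 is known from immune cells, the immune marker list is given beside it: 3 of 10 markers passed the filter, and MS4A1, CD3E and TYROBP were at 0. The sums ran from 3.4 to 3.63 FPKM (low glucose), 5.24 to 5.81 (high glucose) and 2.89 to 3.33 (chrysin), and were lowest under chrysin like RGS10. The fibroblast, endothelial and cardiomyocyte sums were lowest there too, while the pericyte and smooth muscle sum was highest. Single genes weighed heavily in the cardiomyocyte sum and in the pericyte and smooth muscle sum. In the same group order, NPPB had means of 19, 13.2 and 10.1 FPKM, while GATA4 had 8.71, 9.41 and 9. TAGLN had means of 169, 152 and 249 FPKM, while PDGFRB had 80.8, 79.7 and 55.1. CD14, a monocyte marker, rose by 0.70 in high against low glucose (adjusted p 0.00053) and fell by 0.85 with chrysin against high glucose (adjusted p 3.7e-05). The other tested immune markers passed no threshold in any comparison, with CSF1R at -0.30 and PTPRC at -0.09 in chrysin against high glucose. The part of these markers in the RGS10 result was not tested.

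RGS14, a scaffold that binds Ras proteins and, through a GoLoco motif, inactive Gi alpha subunits, was highest in high glucose. It read 3.53, 3.29 and 3.92 FPKM in low glucose, 5.24, 4.54 and 5.64 in high glucose, and 3.08, 4.17 and 4.24 under chrysin. The high-glucose libraries all lay above the other 6. The change was 0.47 (SE 0.13, adjusted p 0.022 from limma) in high against low glucose and -0.39 (adjusted p 0.027) in chrysin against high glucose. The chrysin and low-glucose groups overlapped, with a log2 difference of 0.08 and an interval of -0.20 to 0.36. Both calls are fragile at 53 to 103 reads: without a level filter the adjusted p was 0.062 and 0.066. The first call was also lost when any one of low-glucose libraries 1 and 2 and high-glucose libraries 1 and 3 was left out (adjusted p 0.057 to 0.075), and the second without any one of high-glucose libraries 1 and 3 and chrysin library 1 (0.068 to 0.1).

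RGS12, the largest scaffold of the subfamily, carries a Ras-binding region and a GoLoco motif like RGS14 but followed another course. It read 15.2, 13.8 and 15.3 FPKM in low glucose, 19.4, 17.6 and 17.0 in high glucose, and 16.7, 19.0 and 18.9 under chrysin. Every library in high glucose, with or without chrysin, lay above the 3 in low glucose. The log2 change was 0.28 (SE 0.07, adjusted p 0.015) in high glucose and 0.29 (adjusted p 0.005) with chrysin, both against low glucose, and 0.01 between the 2 high-glucose groups (interval -0.14 to 0.17). The first call was lost without low-glucose library 2 (log2 0.23, adjusted p 0.057). The 3 R12 genes thus passed in different comparisons: RGS10 in both that involve chrysin, RGS14 in both that involve high glucose alone, and RGS12 in both that involve low glucose.

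RGS19, an RZ protein also called GAIP that acts on Gi alpha subunits, read 24.6, 23.4 and 23.6 FPKM in low glucose, 28.5, 26.0 and 26.6 in high glucose, and 26.7, 25.3 and 27.6 under chrysin. As for RGS12, all 6 high-glucose libraries lay above the 3 in low glucose, but the differences were small: 0.18 (SE 0.05, adjusted p 0.025 from limma) in high glucose and 0.15 (adjusted p 0.026) with chrysin. Both were lost under median-of-ratios scaling, at 0.15 (adjusted p 0.055) and 0.09 (adjusted p 0.14). Leaving out any one of low-glucose libraries 2 and 3 and high-glucose library 1 ended the first call (adjusted p 0.069 to 0.078). The second ended without any one of low-glucose libraries 2 and 3 and chrysin libraries 1 and 3 (0.067 to 0.097), and with limma voom on recovered reads (0.054). RGS17, the other RZ member, read 0.964, 0.910 and 0.794, then 0.845, 0.967 and 0.987, then 0.715, 0.797 and 0.879 FPKM. Its groups overlapped in all comparisons, and the largest difference was -0.14 (interval -0.46 to 0.17) in chrysin against high glucose. The level of RGS17 depends on a length of 7859.1 bases implied by the file, while its 2 GENCODE 29 transcripts average 4704.5 bases.

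Of the 12 RGS-named genes outside the list, 3 passed the level filter. RGS7 and RGS9 belong to the R7 subfamily, whose proteins pair with the beta subunit GNB5, and RGS20 to the RZ subfamily. RGS7 had group means of 3.03 ± 0.56, 2.24 ± 0.15 and 2.01 ± 0.35 FPKM (SD, n = 3), and it was lower with chrysin than in low glucose (log2 -0.49, adjusted p 0.015). RGS9 (2.67 to 3.01 FPKM in group means) and RGS20 (11.4 to 12.8 FPKM) passed no threshold. RGS11 lay just outside the filter at 0.479 FPKM with chrysin. RGS1, RGS8, RGS13 and RGS21 were at 0 in all 9 libraries.

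The summed level of the 10 rows was 186 ± 8.2, 189 ± 9.0 and 182 ± 4.2 FPKM in the 3 groups (SD, n = 3), which differ by less than the largest SD, while its make-up moved. RGS4 made up 19.0% ± 0.42 of the sum in low glucose, 11.4% ± 0.72 in high glucose and 27.7% ± 0.63 under chrysin. RGS10 made up 42.1% ± 2.0, 46.0% ± 0.74 and 29.6% ± 2.3 (SD, n = 3). The ratio of RGS4 to RGS10 within a library was 0.483, 0.451 and 0.420 in low glucose, 0.232, 0.270 and 0.244 in high glucose, and 0.865, 1.04 and 0.914 under chrysin. A within-library ratio does not depend on library scaling, and the 3 groups did not overlap in it. RGS4, RGS10 and RGS19 together held 71.8% to 73.9% of the sum in group means.

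**Figure D3:**
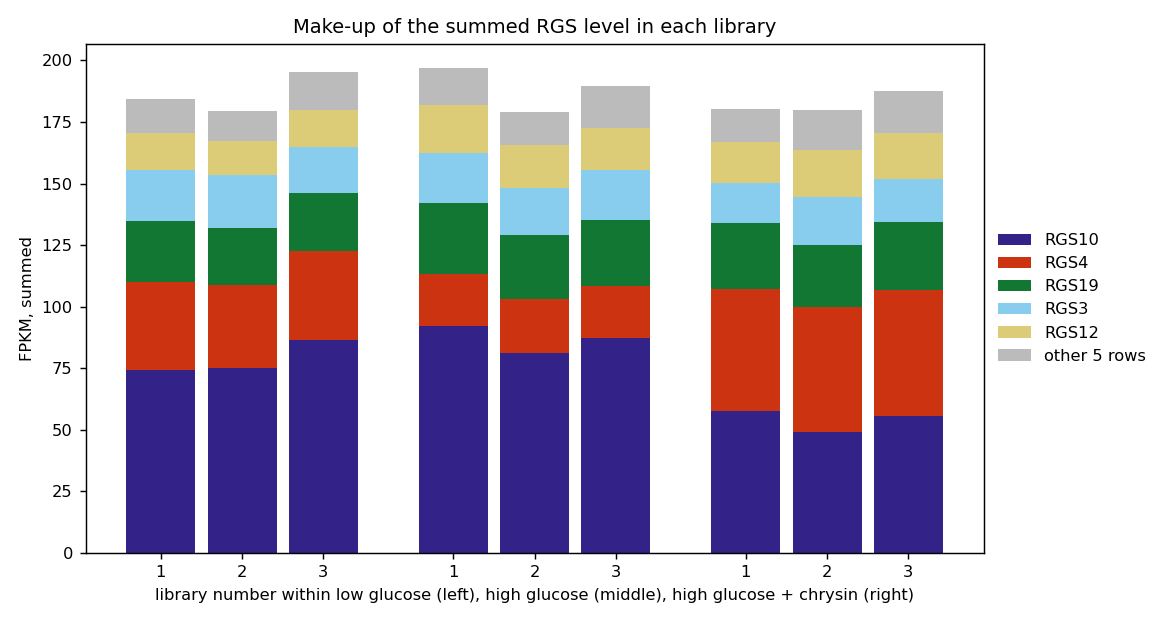
Summed FPKM of the RGS rows (vertical axis, from 0) in each of the 9 libraries, stacked by gene; the grey block holds RGS2, both RGS5 rows, RGS14 and RGS17. Bar heights run from 179 to 197 FPKM, while the RGS4 block is smallest in high glucose (10.8% to 12.2% of the bar) and largest with chrysin (27.2% to 28.4%).

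The genes around the RGS proteins in the pathway were read from 12 lists of 194 rows, of which 142 were tested. In high against low glucose 28 were higher and 16 lower, beside 14.6% and 8.91% of all genes, and under median-of-ratios scaling the split was 21 higher and 21 lower. In chrysin against high glucose 25 were higher and 53 lower, beside 24.9% and 20.9% of all genes. Their median log2 change was 0.05 and -0.06, beside 0.02 and 0.03 over all genes.

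The alpha subunit genes were led by GNAS at 1120, 1160 and 1010 FPKM in the group order used above, followed by GNAI2 at 244, 270 and 236 FPKM. GNAS encodes the Gs alpha subunit, on which the members described here are not known to act. The 3 Gi genes were all lower with chrysin than in high glucose: GNAI1 by -0.19, GNAI2 by -0.20 and GNAI3 by -0.23 in log2, with adjusted p of 0.0016, 0.0025 and 0.00069 from limma. In high against low glucose GNAI2 (0.15) and GNAI3 (0.17) were higher and GNAI1 (-0.16) lower. GNAZ, the Gz alpha subunit, on which RZ proteins act, was at 4.37 ± 0.81 FPKM in high glucose and 7.96 ± 0.55 under chrysin (SD, n = 3), and it rose by 0.81 in log2 with an adjusted p of 0.00037 from limma. Of the Gq class, GNA11 rose with chrysin by 0.19 (adjusted p 0.0009), and GNAQ, at 21.2 to 21.9 FPKM in group means, gave -0.03 (adjusted p 0.67). GNAS changed by -0.19 with chrysin (adjusted p 3.6e-05), while GNAO1 (0.06), GNA12 (-0.06), GNA13 (-0.03) and GNAT2 (0.56) passed no threshold there. GNAT2 reached 0.5 FPKM only with chrysin (0.505 FPKM).

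The calls among beta and gamma subunits with chrysin all had 1 direction. Of 9 tested genes on the beta and gamma list 7 were lower than in high glucose and 0 higher, beside 20.9% and 24.9% of all genes. The list median was -0.35, beside 0.03 over all genes. The beta subunit GNB5 was listed with the proteins that bind RGS proteins and is not in this count. It gave 0.04 with chrysin against high glucose (adjusted p 0.49 from limma). GNG2 fell by 1.19 (from 4.10 ± 0.31 to 1.51 ± 0.15 FPKM, SD, n = 3), GNB3 by 0.85, GNG11 by 0.57 and GNG5 by 0.38 on the log2 scale. In high against low glucose 2 of the 9 were higher, GNB3 by 0.59 and GNG11 by 0.27, beside 14.6% of all genes. A further list joins proteins with a GoLoco motif to activators of G alpha. With chrysin 3 of its 6 tested genes were lower, GPSM3 (-0.70), CCDC88A (-0.40) and GPSM2 (-0.17), and GPSM1 (0.13) was higher.

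Receptors went both ways. With chrysin 7 of 29 tested receptor genes were higher and 13 lower than in high glucose, beside 24.9% and 20.9% of all genes. ADRA1D, among the higher ones, reached 0.5 FPKM only with chrysin (0.513 FPKM). Its place in this count and in the pathway total therefore comes from the same values. S1PR1, a sphingosine-1-phosphate receptor coupled to Gi, followed the course of RGS4, with group means of 3.98 ± 0.32, 2.76 ± 0.018 and 6.94 ± 0.16 FPKM (SD, n = 3). P2RY11, a purinergic receptor, rose in both steps, by 0.85 and 0.65 in log2. CHRM2, the muscarinic receptor of heart muscle, fell by 1.19 with chrysin, to 0.189 FPKM, and F2RL2, a protease-activated receptor, fell by 0.99. Of other proteins with an RGS-like domain, the receptor kinases GRK3 (0.70) and GRK2 (0.31) rose with chrysin and GRK5 fell by 0.75. The beta-arrestin ARRB2 fell by 0.37 with chrysin, and ARRB1 was higher in high than in low glucose by 0.40.

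Genes downstream of Gs and Gq were also mixed. Of 16 cAMP effectors 7 were higher and 2 lower with chrysin, beside 24.9% and 20.9% of all genes. Among them were PDE4D, a cAMP phosphodiesterase (1.05), the kinase subunit PRKAR1B (0.91) and PRKAR2B (-0.74). PDE4A was higher in high than in low glucose, by 0.59. Of 13 Gq effectors 3 were higher and 4 lower with chrysin, beside the same shares of all genes. The channel gene TRPC6 rose by 1.14 and the phospholipase PLCB4 by 0.60, after falling in high against low glucose by 0.46 and 0.39, so both took the course of RGS4. PRKCE and ITPR2 fell with chrysin by 0.31 and 0.46.

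The 2 lists of genes tied to CREB and to calcineurin and NFAT had more lower than higher calls with chrysin. They hold parts of the signalling machinery as well as genes that respond to it. A further list joins CREB targets to CREB family factors and their coactivators. Of its 13 tested genes 1 was higher and 5 lower with chrysin, beside 24.9% and 20.9% of all genes. The lower calls include factors as well as targets. PER1 fell by 0.98 in high glucose and by a further 0.33 with chrysin. SIK1 fell by 0.86 in high glucose, FOS fell by 0.66 with chrysin, and NR4A1 rose by 0.43. Of 9 calcineurin and NFAT genes 1 was higher (NFAT5, 0.45) and 6 lower, beside the same shares of all genes. NFATC4 was at -0.72, RCAN2 at -0.45 and RCAN1 at -0.13, and the other lower genes encode calcineurin subunits. Among 17 genes for proteins that bind or process RGS proteins, ATE1 fell by 0.52 with chrysin and UBR4 rose by 0.48. ATE1 is an enzyme and UBR4 a ligase of the arginine N-degron pathway of protein degradation, which removes RGS4 and RGS5 proteins. YWHAQ fell by 0.35 with chrysin. Protein levels were not measured.

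**Figure D4:**
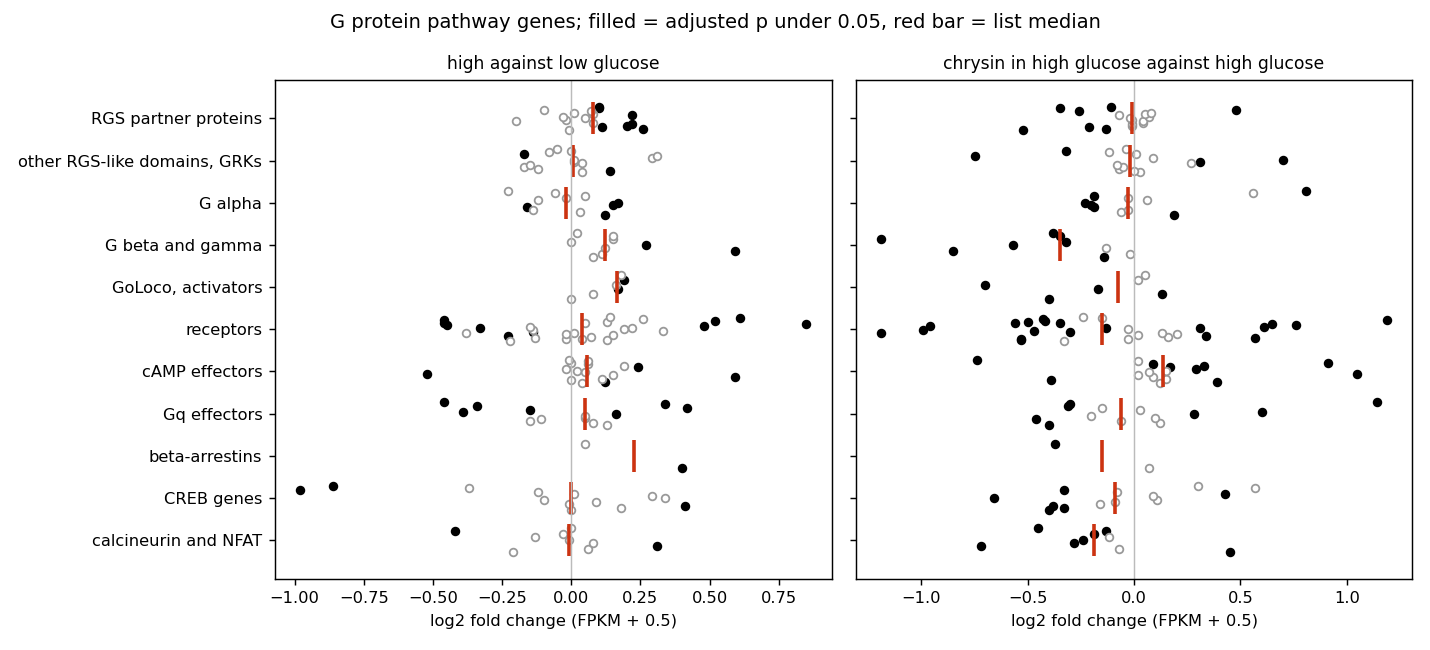
Log2 fold change (horizontal axes, of FPKM plus 0.5) of each tested gene of 11 G protein pathway lists in high against low glucose and in chrysin with high glucose against high glucose. Filled points passed an adjusted p of 0.05 and the red bar is the list median. With chrysin 7 of 9 genes on the beta and gamma list, which leaves out GNB5, are filled and left of 0, with the list median at -0.35.

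RGS4 was the member with the largest change in any comparison, and the genes whose centred log2 profile over the 9 libraries lay nearest to it were sought among 11981 candidates. The 5 nearest were TRPC4 (root mean square difference 0.08 in log2), SLC7A11 (0.11), DUSP1 (0.12), S1PR1 (0.12) and PDE4D (0.14). TRPC4 encodes a calcium-permeable channel and went from 4.58 to 2.91 to 7 FPKM in group means. SLC7A11, the cystine transporter subunit whose loss sensitises cells to ferroptosis, went from 17.5 to 12.1 to 25.9 FPKM. DUSP1, a MAP kinase phosphatase, went from 39.1 to 23.5 to 48.4 FPKM. These genes were picked for their likeness, so their own changes are a description and not support.

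The neighbourhood of RGS4 and RGS5 was read because these members lie side by side and both were higher with chrysin; the window of 500 kb was chosen after their values were seen. It holds 6 tested genes besides them. CCDC190 was the gene there that chrysin raised most, with 1.05 ± 0.16 FPKM in high glucose and 4.31 ± 0.40 under chrysin (SD, n = 3), a log2 change of 1.64 with an adjusted p of 2.8e-06 from limma. HSD17B7, an enzyme of cholesterol synthesis, fell by 0.65 in high glucose and rose by 0.35 with chrysin, and NUF2 rose by 0.19 with chrysin. DDR2 fell by 0.47 in high glucose and was at 64.1 and 61.9 FPKM without and with chrysin. UAP1 and the clone-named AL596325.2 gave -0.15 and -0.71 in high against low glucose, and -0.21 and -0.52 with chrysin against low glucose, and passed the threshold in both. Between chrysin and high glucose they gave -0.06 and 0.19 and passed no threshold.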

How the data were processed

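Polyadenylated RNA of 9 AC16 libraries was measured in 3 groups of 3. The authors deposited FPKM values per gene; per the submitters' processing notes, the tools were HTSeq 0.13.5, StringTie 2.2.1, fastp 0.23.4 and HISAT2 2.2.1, on hg38, with no roles given. FPKM values of all 28230 genes above 0 in 2 or more libraries were whole reads to within 4.7e-05 reads, and the implied gene lengths lay within 5% of the mean GENCODE 29 transcript length for 81.3% of 26323 genes. The main test was limma 3.58.1 (R 4.3.3, trend) on log2(FPKM + 0.5) over all 9 libraries for the 16996 genes that reached 0.5 FPKM in 1 or more group means, with Benjamini-Hochberg adjustment and a threshold of 0.05. The script was tested on simulated data. The comparisons share groups and are not independent of each other. Members, lists and tests were chosen with earlier results of these data known. Named genes are all members, RGS genes above the filter, all tested G alpha genes, up to 4 called genes per list with the largest change (1 such gene is not reported here), and the 5 genes nearest to RGS4. Alternatives were other pseudocounts (0.1 and 1), no filter or one at 5 FPKM, limma voom on recovered reads, a replicate block, median-of-ratios scaling, fits of the compared groups alone, and each library left out. With voom 4654, 8301 and 8984 genes passed, beside 4002, 7792 and 8664 in the main test (high against low glucose, chrysin against high, chrysin against low).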

Additional observations from a re-analysis of the deposited data

How the results depend on the processing

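Of 13 member calls 8 held under every alternative that tested them (RGS5 and RGS17 were not tested at the 5 FPKM filter): all calls of RGS4, RGS5 and RGS10, and RGS12 with chrysin against low glucose. RGS4 stayed between 1.19 and 1.23 in log2 with chrysin against high glucose, RGS10 between -0.73 and -0.61, and RGS5 between 0.65 and 1.02. Without low-glucose library 2 the count of members called in high against low glucose was 1, and without high-glucose library 1 it was 2, beside 4 in the main test (range 1 to 4 with 1 library left out). The other counts ranged from 3 to 5 and 4 to 6 of the members, and from 30 to 43, 69 to 77 and 77 to 90 of the pathway genes. Calls over all genes also changed with 1 library left out. They ranged from 2971 to 3811, 6812 to 7660 and 7707 to 8938, beside 4002, 7792 and 8664 in the main test. Deviations from the group means correlated at -0.015 to 0.008 between same-numbered libraries. That cannot show whether such libraries shared a culture or day. With a replicate block 4, 4 and 5 members and 39, 72 and 86 pathway genes were called, beside 44, 78 and 87 pathway genes without it. Over all genes the block left 3693, 7546 and 8423 calls. Changes of sign occurred only in uncalled values near 0, and their cause was not tested. Median-of-ratios scaling gave -0.01 for the second RGS5 entry and -0.02 for RGS12 in chrysin against high glucose. With 1 library left out, high against low glucose ranged from -0.24 to 0.07 for RGS2, -0.08 to 0.03 for RGS3, -0.13 to 0.25 for RGS5, -0.13 to 0.29 for the second RGS5 entry and -0.01 to 0.09 for RGS17. Chrysin against high glucose ranged from -0.13 to 0.05 for RGS2, -0.11 to 0.25 for the second RGS5 entry, -0.03 to 0.07 for RGS12 and -0.05 to 0.01 for RGS19. Chrysin against low glucose ranged from -0.27 to 0.03 for RGS2 and -0.07 to 0.31 for the second RGS5 entry. RGS2, RGS14, RGS17 and both RGS5 rows have at most 175 reads in any library, which limits the changes that can be detected in them, and 3 libraries a group allow no exact permutation p below 0.1.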
